A study of Mus musculus with 6 samples.

Results

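The Snail, ZEB and Twist transcription factors are described here in Hepa1-6 cells, a mouse liver tumour line, with and without a CRISPR/Cas9 knockout of Matr3, which encodes the nuclear RNA- and DNA-binding protein matrin 3. The members are the 7 genes Snai1, Snai2, Snai3, Zeb1, Zeb2, Twist1 and Twist2, matched by gene symbol among the 55573 rows of the table, and all 7 were found. Bulk RNA-seq was available for 3 libraries with the genotype Matr3 knockout (KO1, KO2 and KO3) and 3 with the genotype WT (WT1, WT2 and WT3). All 6 were grown in DMEM with fetal bovine serum. The genotype label separates the groups, while the treatment text names the knockout for all 6. Separate cultures, the number of knockout clones and any Cas9 in the wild-type cells are not stated, so each p-value reflects the spread of these libraries alone, and that spread may be technical.

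These factors are DNA-binding proteins that drive the epithelial-mesenchymal transition (EMT), in which cells give up epithelial junctions and gain motility, in the embryo and in carcinomas. Snail proteins (Snai1, Snai2, also called Slug, and Snai3) bind short E-box sequences through zinc fingers and recruit corepressors with their amino-terminal SNAG domain. ZEB proteins carry a zinc-finger cluster at each end, bind the same E-boxes and repress E-cadherin and microRNAs of the miR-200 family, which in turn target ZEB mRNAs. Twist proteins are basic helix-loop-helix factors that bind E-boxes as dimers with E proteins. In liver cancer these genes are studied as markers and drivers of invasion and dedifferentiation.

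The libraries held 20736570 to 30794032 counts. Matr3 mRNA was at 79.1 ± 6.08 CPM (counts scaled to library size, with factors from the trimmed mean of M-values) in the knockout and at 129 ± 4.65 in the wild type (SD, n = 3 each), and its level was lower in each knockout library than in any wild-type library. Dhx58, a cytoplasmic RNA sensor gene that the series title names, was at 9.75 ± 0.327 and 5.13 ± 0.805 CPM (SD, n = 3 each; edgeR quasi-likelihood adjusted p = 0.00745). KO2 stood apart from KO1 and KO3 in GC content: the correlation across genes (not independent replicates) of GC content with the log2 deviation of a library was -0.32 for KO2, 0.35 for KO1 and 0.32 for KO3, and lay between -0.22 and -0.03 for the wild type. WT1 stood apart from WT2 and WT3: its counts differed from theirs by a chi-square per gene of 23 and 27.4, against 6.19 between WT2 and WT3, and it had 23440 genes with a count against 20773 and 20931. In the knockout the same measure was 54.8 and 65.7 for KO2 and 3.41 between KO1 and KO3. Defining hepatocyte markers were at or near 0. Of 12 such genes 10 averaged below 1 CPM, and Alb, which encodes albumin, had 1 read in all 6 libraries; Afp, the fetal counterpart of albumin, was at 2.79 CPM in the knockout and 4.81 in the wild type. Vim, which encodes the mesenchymal filament protein vimentin, was at 2610 ± 324 and 2220 ± 329 CPM (SD, n = 3 each). The hepatocyte label of the line was thus not matched by its defining marker RNAs in either group.

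Of the 7 members 6 were abundant enough to test, 1 rose, 1 fell and 4 did not pass. Snai2 rose by 1.00 on the log2 scale and Zeb2 fell to 0.560 of its wild-type level. Snai1 had a lower mean in the knockout without passing the test, and Zeb1, Twist1 and Twist2 had folds between 0.944 and 0.959. Called means a Benjamini-Hochberg adjusted p below 0.05 over all 14842 tested genes in the quasi-likelihood test of edgeR, which called 7.69% of them higher and 7.48% lower. The share of members called, 1 of 6 in each direction, is small in number and cannot be read against these percentages. In RNA from whole cultures, fewer cells with a transcript and less transcript per cell cannot be told apart.

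**Figure D1:**
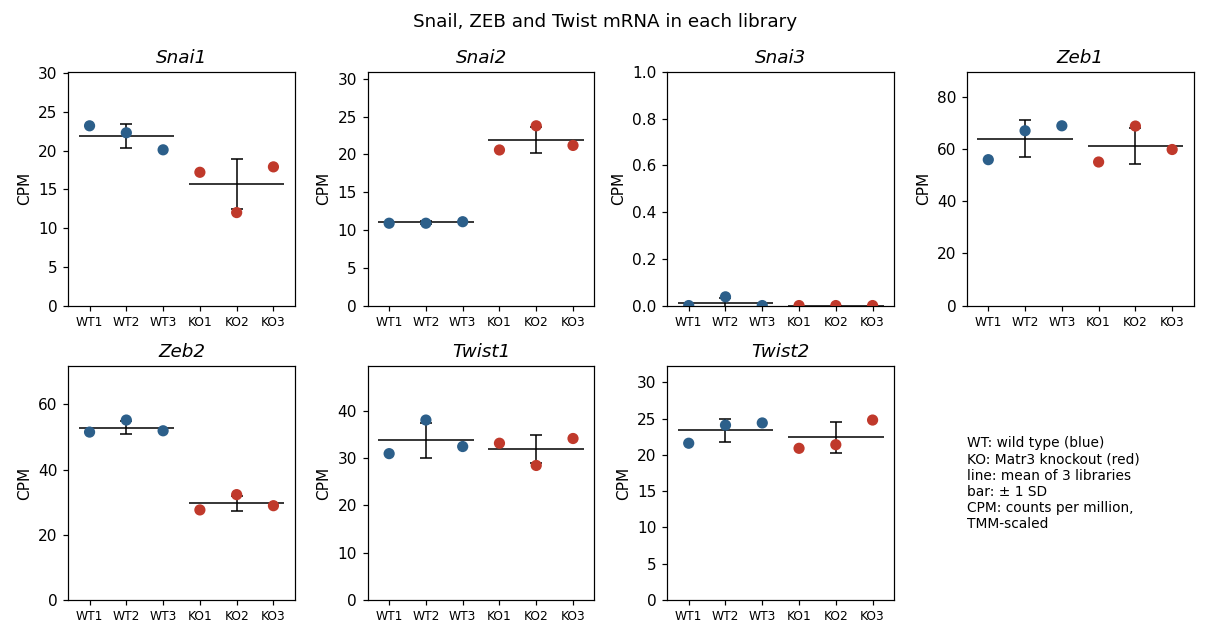
CPM of each member (y axis, linear, from 0) in the 3 wild-type (blue) and 3 knockout (red) libraries (x axis), with the mean and ± 1 SD of each group. Snai2 sits at 10.9 to 11.1 CPM in the wild type and 20.6 to 23.8 in the knockout, Zeb2 at 51.5 to 55.2 and 27.6 to 32.3, and the points of Zeb1, Twist1 and Twist2 overlap between groups.

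Snai2, the Snail factor best known for neural crest migration and for repression of E-cadherin and desmosome genes, was the member that rose. Snai2 (ENSMUSG00000022676; chromosome 16, 14523716 to 14527249, plus strand, coordinates as the table gives them) had 478, 746 and 604 reads in KO1, KO2 and KO3 and 233, 290 and 293 in WT1, WT2 and WT3. On the CPM scale these are 20.6, 23.8 and 21.2 in the knockout and 10.9, 10.9 and 11.1 in the wild type. The wild-type libraries lay within 0.164 CPM of each other as an SD, and the lowest knockout library was well above the highest of them. The log2 fold change was 1.00 (SE 0.108, 95% interval 0.75 to 1.25, edgeR quasi-likelihood adjusted p = 0.00147). It stayed between 0.89 and 1.07 and passed in all 17 alternative analyses. The authors' deposited table gives a log2 fold change of 0.93 with an adjusted p of 1.67e-08 for Snai2.

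Snai1, the founding Snail repressor, had lower values in the knockout but did not pass the test. Snai1 (ENSMUSG00000042821; chromosome 2, 167380115 to 167384734, plus strand) had 400, 377 and 508 reads in the knockout and 497, 595 and 529 in the wild type. In CPM the knockout libraries were at 17.2, 12 and 17.9 and the wild-type libraries at 23.2, 22.3 and 20.1. The groups did not overlap, and KO2 was the lowest library by a wide margin. The log2 fold change was -0.48 (SE 0.161, 95% interval -0.85 to -0.11), which did not pass after adjustment (edgeR quasi-likelihood adjusted p = 0.0812, range over the 17 alternatives 0.00939 to 0.192). The longest annotated Snai1 transcript has a GC content of 59.8%, and KO2 is the knockout library with the negative GC correlation; its part in the result was not tested. With the trend of each library with GC content and length removed, Snai1 was called lower (log2 fold change -0.51, edgeR quasi-likelihood adjusted p = 0.00939), and DESeq2 called it at an adjusted p of 0.0461. Without KO2 the log2 fold change was -0.31 (edgeR quasi-likelihood adjusted p = 0.0535). In the authors' deposited table Snai1 has a log2 fold change of -0.42 and an adjusted p of 0.0615.

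The Snai1 promoter holds an E-box of the kind that Snail and ZEB proteins bind, and SNAI1 is known to bind its own promoter, so the sequence is shown here. The stretch lies at chr2:167538019-167538124 in GRCm38.p6 (plus strand, RefSeq), and the capitals mark the hexamer CACCTG, the reverse complement of CAGGTG, whose first base is 126 bases before the start of transcription.
Snai1 promoter: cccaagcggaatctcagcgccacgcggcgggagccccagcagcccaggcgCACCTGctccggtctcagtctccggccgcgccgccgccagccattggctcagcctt
Promoter windows of 250 bases before to 50 bases after a start were found in RefSeq for 4 of the 7 members, Snai1, Zeb2, Twist1 and Twist2, with 7 windows in all. CAGGTG on either strand occurred in 1 of these 7, against 20.2% of all 32851 windows of this length. CATATG, a palindromic E-box associated with Twist that cannot overlap CAGGTG or CACCTG, occurred in 0 of the 7 and in 3.91% of all windows. A match of letters is a description and not a binding site, and no match says only that these letters are not in the window.

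Snai3, the third Snail gene, was essentially not detected. Snai3 (ENSMUSG00000006587; chromosome 8, 123180947 to 123187472, minus strand) had 0 reads in KO1, KO2, KO3, WT1 and WT3 and 1 read in WT2. Both groups lie under a floor of 3 counts per group, so no fold is given, and the gene did not enter the test. A count of 0 in this table need not mean an absent transcript: Itgb1, the integrin beta 1 gene that most adherent cells use, is also listed at 0 in all 6 libraries.

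Zeb2 was the member that fell. Zeb2, also known as SIP1, is a Smad-binding repressor of E-cadherin. Its gene (ENSMUSG00000026872; chromosome 2, 44873644 to 45007407, minus strand) had 640, 1011 and 822 reads in the knockout and 1104, 1474 and 1364 in the wild type. The CPM values were 27.6, 32.3 and 28.9 in the knockout and 51.5, 55.2 and 51.9 in the wild type. Every knockout library was far below every wild-type library, and both groups were narrow (29.6 ± 2.42 and 52.9 ± 2.01 CPM; SD, n = 3 each). The log2 fold change was -0.84 (SE 0.0939, 95% interval -1.05 to -0.62, edgeR quasi-likelihood adjusted p = 0.00173). All 17 alternatives called Zeb2 lower. The smallest change, -0.55, came on the log2(FPKM + 1) scale, which understates changes of low values, and the next, -0.60, with the GC and length trend removed. The authors' deposited table gives -0.78 with an adjusted p of 2.65e-08.

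Zeb1, the paralog that also represses E-cadherin, stayed within the spread of the libraries. Zeb1 (ENSMUSG00000024238; chromosome 18, 5591860 to 5775467, plus strand) had 1280, 2160 and 1702 reads in the knockout and 1199, 1793 and 1813 in the wild type. In CPM these were 55.1, 68.9 and 59.9 against 56.0, 67.1 and 69.0. Each group had its own low library, KO1 and WT1, and the groups overlapped. Its log2 fold change, -0.06 (SE 0.119; adjusted p = 0.755 in the edgeR quasi-likelihood test), has a 95% interval of -0.33 to 0.21, which does not reach the value of Zeb2. Without KO2 and WT1 together, Zeb1 was called lower at -0.24 (edgeR quasi-likelihood adjusted p = 0.00528).

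The pair of Twist genes did not pass either. Twist1, a mesoderm factor that represses E-cadherin in tumours (ENSMUSG00000035799; chromosome 12, 34007670 to 34009828, plus strand), had knockout values of 33.1, 28.4 and 34.1 CPM and wild-type values of 30.9, 38.0 and 32.4. Twist2, its close relative in skin and bone precursors (ENSMUSG00000007805; chromosome 1, 91729183 to 91775750, plus strand), had 20.9, 21.4 and 24.8 CPM in the knockout libraries and 21.6, 24.1 and 24.4 in the wild-type libraries. The groups overlapped for both genes. Log2 fold changes were -0.08 for Twist1 (95% interval -0.35 to 0.19, edgeR quasi-likelihood adjusted p = 0.669) and -0.06 for Twist2 (95% interval -0.32 to 0.20, adjusted p = 0.747). Neither interval reaches the values of Snai2 or Zeb2. How the authors' counting treated reads shared by the similar helix-loop-helix coding parts of Twist1 and Twist2 is not stated.

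**Figure D2:**
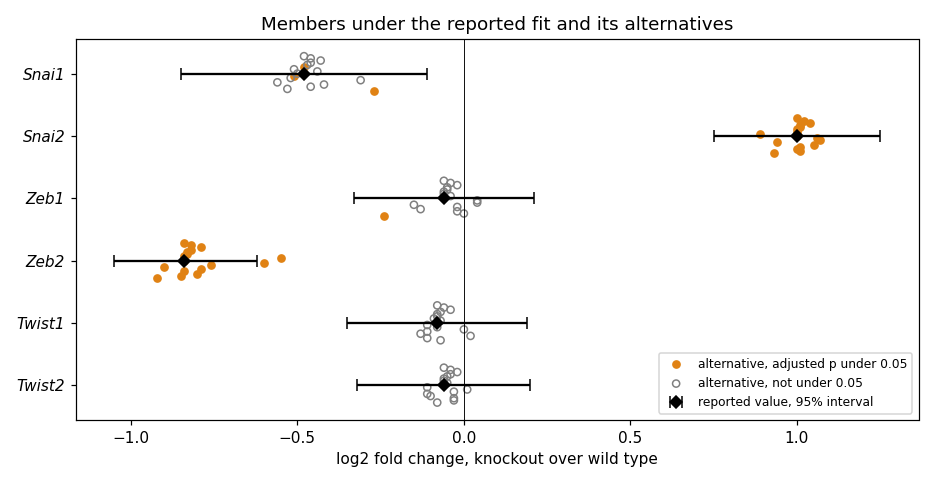
Log2 fold change of knockout over wild type (x axis) for the 6 tested members (y axis): the black diamond and bar are the reported value and its 95% interval, and the small points are 17 alternative analyses, filled where the adjusted p was below 0.05. All points of Snai2 lie between 0.89 and 1.07 and all of Zeb2 between -0.92 and -0.55, all filled, while Snai1 has 3 filled points.

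Groups did not overlap for 3 of the 6 tested members, Snai1, Snai2 and Zeb2, against 36.6% of all tested genes. With 6 members this share is not a result about the family. Measured by mean CPM over all 6 libraries, the tested members were of middling abundance, from the 42.7th percentile of tested genes for Snai2 to the 72.9th for Zeb1.

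Compared per length, Twist1 was the most abundant member in every library. Deposited FPKM values (fragments per kilobase of gene length, scaled to library depth) of Twist1 were 20.2, 17.6 and 21 in the knockout and 18.6, 23.3 and 19.9 in the wild type. In the wild type Snai1 came next (13.4 ± 0.858 FPKM), then Twist2 (7.31 ± 0.568), Zeb1 (6.20 ± 0.746), Snai2 (5.39 ± 0.121) and Zeb2 (2.60 ± 0.117; SD, n = 3 each). Across the wild-type libraries the values of Zeb1 overlapped with those of both Twist2 and Snai2, while Snai1 and Zeb2 were each clear of their neighbours. Within each wild-type library the order was the same. In the knockout Snai2 moved up beside Snai1, at 10.8 ± 0.900 against 9.69 ± 1.94 FPKM, and the order of these 2 differed between libraries. On this scale Zeb2 was the lowest tested member in all 6 libraries, with 1.36 to 1.61 FPKM in the knockout. The table divides Zeb2 by a length of 20203 bases and Zeb1 by 10266, against 9124 and 5801 bases for their longest transcripts in GENCODE M21, and Twist2 by 3174 against 2525. Rescaled to these transcript lengths, an alternative chosen after seeing the data, Zeb2 was at 5.54, 6.04 and 5.69 FPKM in WT1, WT2 and WT3, above Snai2 in each of them, and at 3.01, 3.56 and 3.17 in the knockout, where it was still the lowest. Zeb1 then lay above Twist2 in all 6 libraries, and in KO2 it was above Snai1. Twist1 was the highest on both scales.

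Ratios of paralogs within a library do not depend on how libraries are scaled, though they can still carry a library's trend with GC content. Those of the Snail and ZEB families differed between the groups without overlap. Snai2 over Snai1, in FPKM, was 0.958, 1.59 and 0.954 in KO1, KO2 and KO3 and 0.376, 0.391 and 0.444 in WT1, WT2 and WT3. The knockout libraries were all higher, on average 2.89-fold, and KO2 stood above the other 2. KO2 is the knockout library with the negative GC correlation. The longest annotated transcripts of Snai1 and Snai2 have a GC content of 59.8% and 42.6%, and its part in this ratio was not tested. As a share of reads, Snai2 made up 54.4%, 66.4% and 54.3% of the Snai1 and Snai2 reads in the knockout and 31.9%, 32.8% and 35.6% in the wild type. The ratio of Zeb2 to Zeb1 was 0.254, 0.238 and 0.245 in the knockout and 0.468, 0.418 and 0.382 in the wild type, a tight group against a wider one with no overlap. Twist2 over Twist1 was 0.362 ± 0.0328 and 0.357 ± 0.0301 (SD, n = 3 each), with overlapping groups.

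Set against each other, Snai2 and Zeb2 separated the groups, as follows from each gene doing so alone in opposite directions. The ratio of Snai2 to Zeb2 in FPKM was 7.47, 7.38 and 7.35 in the knockout and 2.11, 1.97 and 2.15 in the wild type. The same holds for Snai2 over Snai1, so neither separation is further evidence. The summed FPKM of Snai1 and Snai2 was 20.5 ± 1.13 in the knockout and 18.8 ± 0.740 in the wild type, a ratio of 1.09 between the means. The Zeb1 and Zeb2 counts summed as CPM were 82.7, 101 and 88.8 in the knockout and 107, 122 and 121 in the wild type, without overlap. Summed as FPKM, which gives Zeb2 less weight through its long table length, they were 7.44 ± 0.844 and 8.80 ± 0.826 (SD, n = 3 each), with overlapping groups. These 10 sums and ratios were chosen after the members' values were seen. With 3 libraries against 3, an exact two-sided permutation test cannot go below p = 0.1; it gave that value for Snai2 over Snai1, Zeb2 over Zeb1, Snai2 over Zeb2, the Snai1 and Snai2 sum and the Zeb1 and Zeb2 sum in CPM (0.125 after adjustment over the 10). The same exact permutation test gave p = 0.2 for the Zeb sum in FPKM (0.222 adjusted) and p = 0.9 for Twist2 over Twist1 (0.9 adjusted).

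**Figure D3:**
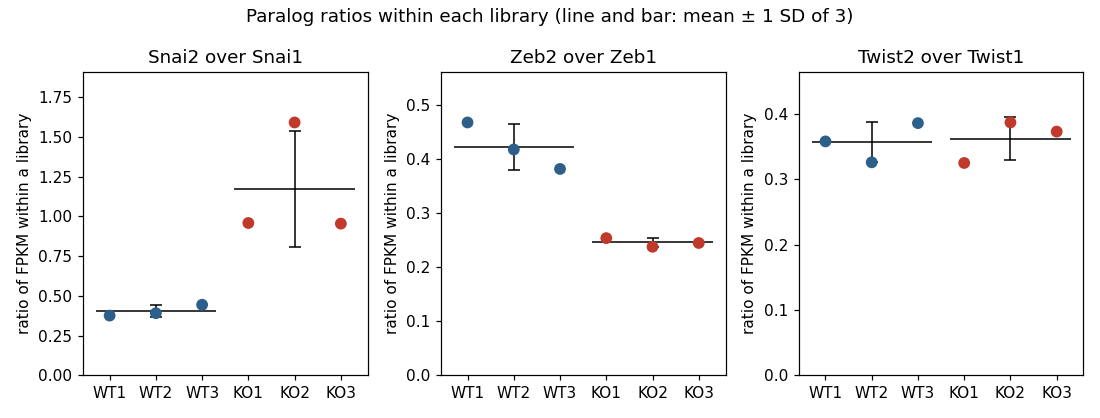
Ratio of deposited FPKM of the second over the first paralog (y axis, linear, from 0) in each library (x axis; wild type blue, knockout red), with the mean and ± 1 SD of 3 libraries. Snai2 over Snai1 is 0.376 to 0.444 in the wild type and 0.954 to 1.59 in the knockout, Zeb2 over Zeb1 is 0.382 to 0.468 and 0.238 to 0.254, and the Twist ratio overlaps.

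Genes beside or overlapping the members were examined next, and the lowest adjusted p among those tested was 0.083 (edgeR quasi-likelihood), for Ube2v1 beside Snai1. The nearest protein-coding genes on either side of Snai2, A630010A05Rik and Efcab1, had 0 reads in all 6 libraries. The nearest protein-coding genes to Zeb2 in the table, Gtdc1 at 55975 bases (log2 fold change -0.09, edgeR quasi-likelihood adjusted p = 0.754) and Acvr2a at 3696714 bases (0.23, adjusted p = 0.277), did not pass. The antisense gene Zeb2os, which overlaps Zeb2 on the other strand, had 5, 6 and 2 reads in the knockout and 2, 5 and 9 in the wild type, too few to test. The strand setting of the counting is not stated, so reads of an overlapping pair on opposite strands cannot be told apart. Rnf114 and Ube2v1 beside Snai1, Zfp438 and Arhgap12 beside Zeb1, and Asb1 and Hdac4 beside Twist2 did not pass. The antisense Gm29100, which overlaps Twist2, had 99, 110 and 100 reads in the knockout and 106, 76 and 102 in the wild type.

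Epithelial genes were next counted, as a list of junction, polarity and keratin genes, a class that includes known targets of Snail and ZEB proteins. Whether each listed gene is a target was not examined. Of 41 genes 22 were tested, 9 rose (40.9%, against 7.69% of all tested genes), 1 fell and 12 did not pass. The median log2 fold change was 0.39 against -0.02 for all tested genes. This list, like the others here, was chosen with earlier results of these data known. Such shares and medians therefore describe the lists and are no test of them. Dsp, the desmosome plaque protein desmoplakin, rose from 16.3 ± 1.38 to 54.0 ± 2.04 CPM, the keratin gene Krt19 from 282 ± 13.4 to 639 ± 21.2, Ocln, which encodes the tight junction protein occludin, from 11 ± 0.682 to 20.9 ± 0.322 and Krt8 from 413 ± 44.4 to 759 ± 3.25 (SD, n = 3 each; edgeR quasi-likelihood adjusted p = 0.000122, 0.000254, 0.00186 and 0.00200). Named after their values were seen, F11r, Pkp2, Pkp3 and Krt18 were among the others that rose (log2 fold changes 0.82, 0.44, 0.64 and 0.39), and Marveld2 fell from 0.762 to 0.163 CPM. Cdh1, which encodes E-cadherin, the classical target of all 3 families, had 15 reads in the knockout and 5 in the wild type and was too low to test, and Epcam was at 1.78 ± 0.197 and 1.29 ± 0.311 CPM (log2 fold change 0.45, edgeR quasi-likelihood adjusted p = 0.337). The genes that rose were thus keratin, desmosome and tight junction genes, with E-cadherin near 0 in both groups. Other junction genes of the list, named after their values were seen, were not called higher. Tjp1 (log2 fold change 0) and Jup (0.29) did not pass. Cldn1 had 0 reads, and Cldn3, Cldn4, Dsg2 and Dsc2 were too low to test. The number that rose was 5 without KO1, KO3, WT2 or WT3: calls that included Pkp2, Pkp3 and Krt18, and that of Marveld2, ended without any of these libraries.

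Hexamers of the Snail and ZEB type were common in the promoters of these genes. CAGGTG on either strand was found in the windows of 21 of the 26 list genes that RefSeq covers, 80.8%, and in 25 of their 34 windows, 73.5%, against 20.2% of all windows and 1 of the 20 mesenchymal genes with a window. The list was drawn up from epithelial genes, a class with known Snail and ZEB targets, so this share is a description of the list. Over this list and that of epithelial and liver factors, 11 genes were called higher. Of these, 7 had a window and 6 had a hexamer in it. To show the sites beside the values, 30 bases around each hexamer before the start are given for 4 of these 6. Sequences are in the sense of the gene, with the hexamer in capitals (RefSeq windows, GRCm38.p6). Dsp holds it only at or after the start, and Krt8, with CACCTG at -111, is not shown. Elf3 is from the list of epithelial and liver factors, in which 5 of 13 genes with a window held the hexamer (38.5%). Krt18 is at chr15:102027990-102028019 on the plus strand, F11r at chr1:171437427-171437456 on the plus strand, Elf3, an epithelial Ets factor that rose as well, at chr1:135258595-135258624 on the minus strand, and Ocln at chr13:100552694-100552723 and chr13:100552549-100552578 on the minus strand.
Krt18: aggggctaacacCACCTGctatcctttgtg
F11r: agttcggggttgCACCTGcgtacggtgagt
Elf3: gaatatgcaaatCACCTGggacagggagcc
Ocln, distal: ccatcggagtttCAGGTGaatgggtcaccg
Ocln, proximal: ctaggggctcggCAGGTGggtcccagcgca
Across all tested genes with a window, 9.58% of the 2046 with the hexamer were called higher and 7.97% lower, against 8.45% and 8.04% of the 8031 without it.

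Mesenchymal genes moved both ways. Of 36 genes 23 were tested, 3 rose, 4 fell and 16 did not pass, with a median log2 fold change of 0.06. The share called was 30.4% (13% higher and 17.4% lower), against 15.2% of all tested genes (7.69% and 7.48%). Over the 17 alternatives the number called higher ran from 0 to 7 and the number called lower from 3 to 9. Fn1, which encodes the matrix protein fibronectin, fell from 350 ± 30.2 to 193 ± 8.37 CPM (-0.86 on the log2 scale), as did the matrix metalloprotease gene Mmp3, from 6.81 ± 1.03 to 0.893 ± 0.344 (-2.93; SD, n = 3 each; edgeR quasi-likelihood adjusted p = 0.00173 and 0.00117). Mmp2 had 0 reads in the knockout and 127 in the wild type, at least 47.2-fold lower against a floor of 3 counts over the group, and Mmp9, named after its value was seen, fell by 0.77, a call that ended without KO1, KO3 or WT2. Loxl3, a lysyl oxidase that interacts with Snai1, rose by 0.58, and Col1a1 (0.81) and S100a4 (2.05), named after their values were seen, rose too; all 3 calls ended without KO1, KO3, WT2 or WT3 (edgeR quasi-likelihood adjusted p from 0.0562 to 0.215 over the alternatives in which they were lost). S100a4 was at 9.43, 1.88 and 9.81 CPM in KO1, KO2 and KO3. In WT1, WT2 and WT3 it was at 1.68, 1.61 and 1.79, so KO2 was close to the wild type. Its call also ended in limma voom, in limma on log2(FPKM + 1) and without WT1, and that of Col1a1 also without WT1. Vim (0.24) and the N-cadherin gene Cdh2 (0.17, at 80.5 ± 7.44 and 71.6 ± 10.6 CPM), both markers of the mesenchymal state, did not pass.

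Of other transcription factors linked to EMT, 22 of 24 were tested, 18 did not pass, 3 fell and 1 rose (median 0.00). The share called, 18.2%, was near the 15.2% of all tested genes and is not a result about this list. Hmga2, a chromatin protein that induces Snai1 and Twist1 transcription, fell from 70.7 ± 2.42 to 37.9 ± 2.80 CPM (log2 fold change -0.90, edgeR quasi-likelihood adjusted p = 0.00102), Sox4 by 0.72 and the zinc-finger gene Zfp281 by 0.41, while Runx2 rose by 0.36. Among epithelial and liver transcription factors, which oppose these programmes, 2 of 10 tested genes rose and 1 fell (median 0.12). The share called, 30% against 15.2% of all tested genes, rests on few genes and is not a result about this list. Elf3 rose from 22.3 ± 1.42 to 46.4 ± 3.70 CPM (log2 fold change 1.06; edgeR quasi-likelihood adjusted p = 0.000956) and Klf4 by 0.65, and Gata6 fell by 0.47. The calls of Hmga2 and Elf3 held in all 17 alternatives; those of Sox4, Zfp281, Runx2, Klf4 and Gata6 were lost in 2 to 8 of them, which include WT3 left out for each.

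**Figure D4:**
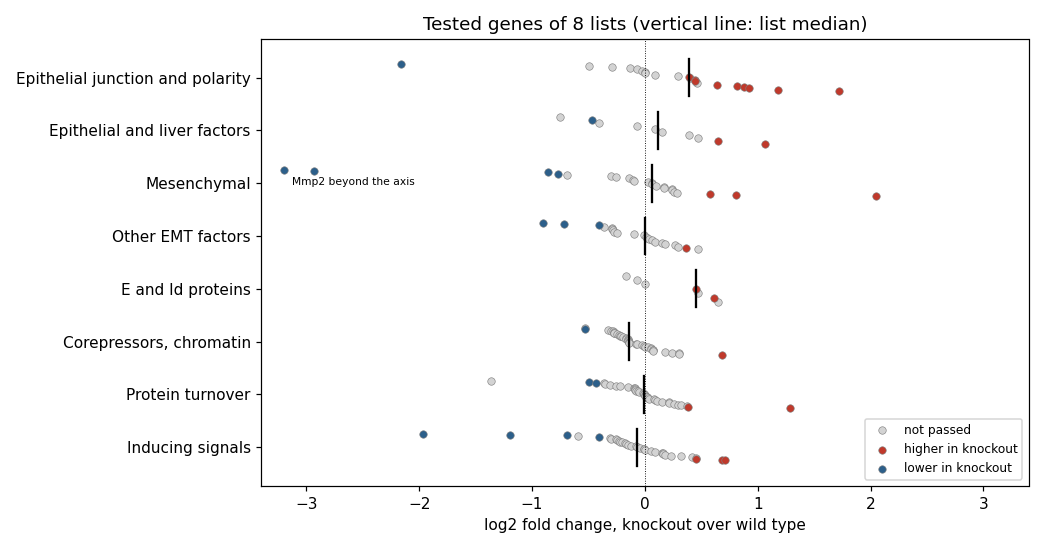
Log2 fold change of knockout over wild type (x axis) of the tested genes of 8 lists (y axis), red where called higher, blue where called lower and grey where not passed, with the list median as a vertical line. The epithelial list has its median at 0.39 and 9 red points, the mesenchymal list its median at 0.06 with 4 blue and 3 red points, and Mmp2 lies beyond the axis because its knockout libraries are at 0.

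Partners of the members were tested next. All 37 genes of corepressors and chromatin enzymes used by these factors were tested, and 1 rose and 1 fell (median -0.14; 5.41% called against 15.2% of all tested genes): the Polycomb genes Ring1 (0.68) and Rnf2 (-0.53), while, named after their values were seen, Ctbp1, the ZEB corepressor, and Kdm1a, the demethylase that binds the SNAG domain, had log2 fold changes of 0.00 and -0.19. At an unadjusted p under 0.05 edgeR had 9 of the 37 lower and 4 higher, and the number called lower ran from 0 without KO1 or KO3 to 19 without KO2 and WT1 together. Among the 7 genes of E proteins, which pair with Twist, and Id proteins, which block that pairing, Id3 rose from 153 ± 2.49 to 233 ± 25.7 CPM (log2 fold change 0.61, edgeR quasi-likelihood adjusted p = 0.00744) and Id1 by 0.45, and 0 fell in edgeR, DESeq2 or limma voom, with 0 lower at an unadjusted p under 0.05 in edgeR. Without KO2 and WT1 together, 1 of these 7 genes was called lower. The share of the 7 called, 28.6% against 15.2% of all tested genes, rests on few genes and is not a result about this list. Among genes that control the stability of the proteins, 2 of 37 tested rose and 2 fell (median -0.01), and the number called lower ran from 0 without KO1, KO3 or WT3 to 13 without KO2 and WT1 together: Prkd1, a kinase that phosphorylates Snai1, rose from 2.46 ± 0.592 to 6.02 ± 0.179 CPM (1.29, adjusted p = 0.00690) and the ubiquitin ligase gene Stub1 by 0.38, and Atm (-0.50) and Skp1 (-0.43) fell. Gsk3b and Btrc, the kinase and ligase of the main Snai1 degradation route, named after their values were seen, were at 0.11 and 0.26 and did not pass. The share of these 37 stability genes called was 10.8%, against 15.2% of all tested genes, and is not a result about this list. The calls of Id3 and Prkd1 held in all 17 alternatives, and those of Ring1, Rnf2, Id1, Stub1, Atm and Skp1 ended without KO1 or without KO3.

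Of 39 genes of signalling pathways linked to the members, not all of them inducers, 35 were tested, 28 did not pass, 3 rose and 4 fell (median -0.07). The share called, 20%, was close to the 15.2% of all tested genes, and the counts ran from 1 higher and 2 lower without KO1 to 8 and 14 without KO2 and WT1 together. The Notch ligand gene Jag2 fell from 39.6 ± 4.86 to 17.2 ± 3.31 CPM (-1.20 on the log2 scale), the IGF1 receptor gene Igf1r fell by 0.69, and Relb rose by 0.68 and Bmp2 by 0.71 (edgeR quasi-likelihood adjusted p = 0.00326, 0.00592, 0.00862 and 0.0121). Egfr rose by 0.45, and Jag1 and Lef1 fell by 0.41 and 1.97; these 3 were named after their values were seen. The calls of Jag2, Igf1r and Relb held in all 17 alternatives, that of Bmp2 ended without KO1, and those of Egfr, Jag1 and Lef1 ended without KO1 or without KO3. Tgfb1, Tgfbr1, Tgfbr2, Smad2, Smad3 and Smad4, which carry the TGF-beta signal to the members, named after their values were seen, had log2 fold changes between -0.25 and 0.15 and did not pass. Of 11 more distant family relatives 6 are listed at 0 in all 6 libraries, and of 4 tested, Zfhx3 fell by 0.61, a call lost in 8 alternatives. Of 13 hairpin genes of microRNAs that target ZEB and Snail mRNAs, miR-200 family included, 11 had 0 reads. Mir34b and Mir34c had 5 and 1 reads, all in WT3. The libraries were made with an mRNA kit, which does not measure mature microRNAs.

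Genes whose level followed a member most closely over the 6 libraries were listed by Pearson correlation of log2(CPM + 1), among 11972 tested protein-coding genes. For Snai2 these were Abca3, Acss2 and Aldh3a2 (r = 0.998, 0.998 and 0.997), all higher in the knockout, by 0.49, 0.88 and 0.71 on the log2 scale. For Zeb2 they were Afap1, Zc4h2 and Crmp1 (r = 0.999 each), all lower, by -0.76, -2.21 and -1.09. Snai1 was followed by Mybl2, Dnaja1 and Mdga1 (r = 0.999, 0.997 and 0.995). Zeb1 had Med19, Cdc5l and Prkacb as its closest genes (r = 0.996, 0.990 and 0.989), Twist1 had Coro1c, Wwc1 and Itprip (0.993, 0.984 and 0.961) and Twist2 had Klhl25, Prph and Slc22a23 (0.981, 0.976 and 0.950). The 6 points share libraries and group, so these values are a description only.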

How the data were processed

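Bulk RNA-seq of 3 Matr3 knockout and 3 wild-type libraries was analysed. Raw counts per gene and FPKM per gene were used as the authors deposited them, and the deposited count table also holds the authors' normalised signal per library, log2 fold changes and p-values with adjusted p-values for knockout against wild type. The submitters' processing notes name GRCm38 and mm10; for the aligner, counter and annotation, nothing is stated. Only 1494 of 52081 gene identifiers shared with GENCODE M21 (GRCm38) have the same coordinates there, so the build of the table's coordinates is unsettled, and RefSeq promoter windows are on GRCm38.p6.

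Counts were tested with edgeR 4.0.16 (R 4.3.3; filterByExpr, TMM, quasi-likelihood, Benjamini-Hochberg over 14842 genes), without a replicate block. Unannotated rows (159) stayed in the library totals and were open to testing like all other rows. The 17 alternatives included DESeq2 1.42.0 and limma 3.58.1; scripts were tested on simulated data. The 10 pathway lists, 4 marker lists and the members were chosen with earlier results of these data known. Named genes were the members, Matr3, Dhx58, 5 EMT markers (Cdh1, Epcam, Vim, Cdh2 and Fn1) and, in each list, up to 4 called genes with the smallest p, genes overlapping or next to a member, and the 3 genes most correlated with each; all other genes given, among them partner, signalling and cell type marker genes and Itgb1, were named after their values were seen. FPKM rescaled to the longest GENCODE M21 transcript was added after seeing the data. Some items are not reported here.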

Additional observations from a re-analysis of the deposited data

How the results depend on the processing

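Over the 17 alternatives Snai2 stayed higher and Zeb2 lower, each called in all 17, and Twist1 and Twist2 were called in 0 (edgeR, DESeq2 and limma). Leaving out 1 library gave log2 fold changes of -0.56 to -0.31 for Snai1, 0.94 to 1.07 for Snai2, -0.15 to 0.04 for Zeb1, -0.90 to -0.76 for Zeb2, -0.13 to 0.02 for Twist1 and -0.11 to 0.01 for Twist2. Snai1 passed with DESeq2 (-0.48), after removal of the trend with GC content and length (-0.51) and without KO2 and WT1 together (-0.27), where Zeb1 passed too (-0.24). Members called lower were therefore 2, 2 and 3 in these, against 1. All calls numbered 2252, and 807 (without WT3) to 4295 (without KO2) with 1 library left out, and 7556 without KO2 and WT1 together. The pathway lists held 23 higher and 17 lower genes, 9 to 35 and 7 to 25 with 1 library left out, and 44 and 66 without both. The cause was not tested.

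The replicate numbers did not pair the samples: deviations of same-numbered libraries correlated at 0.25, -0.04 and -0.34. Differently numbered pairs ran from -0.37 for KO1 with WT3 to 0.42 for KO2 with WT3. With a replicate block 1599 genes were called, and the log2 fold changes were -0.50 for Snai1, 1.00 for Snai2, -0.06 for Zeb1, -0.84 for Zeb2, -0.08 for Twist1 and -0.06 for Twist2; the block changed the call of none of these 6.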

Other observations

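Marker genes of other cell types were counted, as a check of what the cultures held. Of 12 stellate cell and fibroblast markers 6 were tested, and Des and Col1a1 were higher and Pdgfrb and Dpt lower in the knockout, while Lrat, Hand2 and Thy1 had 0 reads; their summed level was 548 to 664 CPM in the knockout and 603 to 702 in the wild type. Of 10 endothelial markers 4 were tested and 2 were lower, Cdh5 (0.481 against 2.37 CPM) and Eng (3.44 against 5.64), and Lyve1 and Emcn had 0 reads; the sum was 4.89 to 6.16 against 8.87 to 10.4 CPM. Of 10 macrophage markers 3 were tested and 0 called by edgeR (2 higher and 0 lower at an unadjusted p under 0.05), Adgre1, Lyz2, Clec4f, Itgam and Tyrobp had 0 reads, and the sum was 26.5 to 31.4 against 20.4 to 23.4 CPM. Of the tested genes, 66.7% of the 6 stellate cell and fibroblast markers and 50% of the 4 endothelial markers were called, against 15.2% of all tested genes. These numbers are too small to be read against that share. The part of the marker genes in the changes of Snai2 and Zeb2 was not tested.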
